A study of Homo sapiens with 6 samples.

Results

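The mitochondrial ribosomal protein genes are described here in K562 cells, a BCR-ABL-positive human erythroleukaemia line, after knockdown of a long non-coding RNA. The members are the protein-coding genes whose RefSeq symbol is MRPL or MRPS followed by a number, with pseudogenes left out. They number 77 of the 19053 gene symbols found in the table, 49 MRPL genes named for the large subunit and 28 MRPS genes named for the small subunit. The table lists 109018 RefSeq protein accessions, and each member is represented by its accession with the most reads over the 6 libraries. The comparison is between 2 groups. In the first, 3 libraries came from K562 cells stably expressing an shRNA against a long non-coding RNA that the labels call lncRNA-IIRX (sh-lncRNA-IIRX), and in the control group (sh-luc) 3 came from K562 cells whose shRNA targets luciferase. Both shRNAs were delivered by a lentivirus in the pSIH-H1-GFP vector, so all 6 libraries share infection, vector and GFP marker. The labels speak of independent groups of cells, but number library 1 of each group on its own and libraries 2 and 3 as a pair under a shared number, here called series 1 and series 2 in that order. Each group rests on a single shRNA, and whether its libraries came from separate infections is not given in the sources used here, so the p-values measure the spread between these libraries. The rows are protein accessions, and the level of the targeted lncRNA was not analysed here.

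Mitochondrial ribosomes translate the few proteins encoded by mitochondrial DNA, all of them core subunits of the respiratory chain and ATP synthase. Their rRNAs and a tRNA come from mitochondrial DNA, whereas every one of their proteins is encoded in the nucleus, made on cytosolic ribosomes and imported. Some of these proteins descend from bacterial ribosomal proteins and carry u (universal) or b (bacterial) in the structural nomenclature. Others, marked m, are named there as specific to mitochondrial ribosomes. In erythroid cells, mitochondria also carry out the first and last steps of haem synthesis.

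The libraries held 21023739 to 31481109 reads counted on accessions, of which the members' rows took 0.4947% to 0.5235% in sh-luc and 0.4415% to 0.48% in sh-lncRNA-IIRX. Replicates of a group differed by more than sampling noise, with a chi-square per accession of 1.74 to 6.54, lowest between libraries 2 and 3 in both groups. All 7 K562 markers examined were read in every library, among them the fetal globin gene HBG2 with a mean of 12360 TMM-scaled RPKM in sh-luc and 8557 in sh-lncRNA-IIRX, and CDKN2A and MTAP, which are deleted in K562 cells, had no read. Of 10 markers of other cells, 7 stayed under 1 TMM-scaled RPKM and LYZ, EPCAM and KRT19 did not; the summed level of the 10 was 339.2 to 383.1 in sh-luc and 303.1 to 342.4 in sh-lncRNA-IIRX, and their part in the results was not tested. TMM-scaled RPKM means reads per kilobase of the accession's coding length, scaled to a library size that is the total of counted reads times edgeR's TMM factor, and all levels below are on this scale. Where a member has several accessions, its level is that of the accession used, which held only part of the gene's reads. Examples are MRPL52 with 30.3%, MRPS11 with 29.2% and MRPS27 with 37.9%.

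Most mitochondrial ribosomal protein mRNAs were lower in sh-lncRNA-IIRX cells. Of the 49 MRPL genes, 33 fell, 1 rose and 15 did not pass the threshold of an adjusted p of 0.05, in edgeR's quasi-likelihood test fitted on the whole table of 38204 accessions whose RPKM averaged 1 or more. Of the 28 MRPS genes, 17 fell, 1 rose and 10 did not pass. All 77 members were above the minimum level, so none was left out by it. Over all 8873 genes tested with 1 accession each, 23.5% were called lower and 22.4% higher, against 67.3% and 2.04% of MRPL genes and 60.7% and 3.57% of MRPS genes. The median log2 fold change was -0.34 for MRPL, -0.30 for MRPS and -0.007 over all genes. The falls were shallow: 7 members, all of them MRPL genes, fell by more than 1.5-fold, and none by 2-fold. RNA-seq of bulk cells gives shares of the mRNA pool, so fewer cells of a type and less RNA per cell cannot be told apart.

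Library by library, the groups stood apart as a whole. The members' median log2 ratio to the sh-luc mean was -0.061, 0.016 and 0.011 for MRPL in sh-luc libraries 1, 2 and 3 and -0.459, -0.287 and -0.379 in sh-lncRNA-IIRX libraries 1, 2 and 3. For MRPS the same medians were -0.05, 0.01 and 0.004 in sh-luc and -0.314, -0.26 and -0.244 in sh-lncRNA-IIRX. The 3 sh-lncRNA-IIRX libraries lay below all 3 sh-luc libraries for 57 members and above them for 3, with 17 overlapping; over all genes tested the groups did not overlap downwards in 27.5% and upwards in 26.9%. The lowest of the 6 values belonged to sh-lncRNA-IIRX library 1 in 56 of the 77 members. Within label series 1, with 1 library a group, the median log2 ratio was -0.36 for MRPL and -0.30 for MRPS, and within series 2, with 2 libraries a group, it was -0.32 and -0.27. All 50 members called lower were lower within both series. Leaving out each library in turn gave 27 to 33 MRPL genes and 15 to 18 MRPS genes called lower, and 26 and 15 of the genes called lower with all libraries were called lower in each of these 6 fits.

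**Figure D1:**
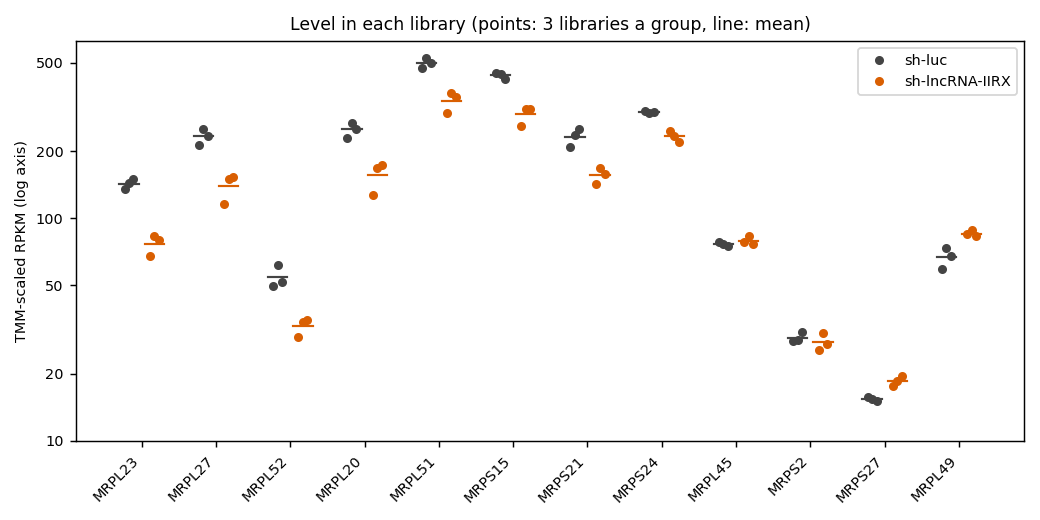
TMM-scaled RPKM (log axis) of 12 members in each of the 3 sh-luc (grey) and 3 sh-lncRNA-IIRX (orange) libraries, with lines at the group means. MRPL23 fell from a mean of 143.3 to 76.88, MRPL49 rose from 66.78 to 85.39, and the groups of MRPL45 and MRPS2 overlapped.

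The largest fall of the 77 was that of MRPL23 (uL23m, NP_066957.3), a protein at the mouth of the polypeptide exit tunnel whose gene lies on the plus strand at chr11:1947332-1956600 (hg38). Its level was 135.6, 143.5 and 150.7 TMM-scaled RPKM in sh-luc and 67.65, 82.96 and 80.04 in sh-lncRNA-IIRX. Every knockdown library was thus well under every control library, with library 1 the lowest. The log2 fold change was -0.90 ± 0.089 (SE, n = 3 against 3, edgeR adjusted p = 6.35e-07), a level 46.4% lower. MRPL27 (bL27m), whose bacterial counterpart reaches towards the peptidyl transferase centre, lies on the minus strand at chr17:50367867-50373184. It was at 214.1, 251.6 and 235.6 TMM-scaled RPKM in sh-luc and at 116.6, 149.8 and 153.0 in sh-lncRNA-IIRX. The groups did not overlap, and the log2 fold change was -0.74 ± 0.097 (SE, edgeR adjusted p = 1.24e-05). MRPL52 (mL52), a mitochondria-specific protein of the central protuberance at chr14:22829887-22835037 on the plus strand, was at 49.74, 61.99 and 51.97 TMM-scaled RPKM in sh-luc and at 29.2, 34.28 and 35.02 in sh-lncRNA-IIRX. Its groups were also apart, with a log2 fold change of -0.74 ± 0.108 (SE, edgeR adjusted p = 3.91e-05). MRPL20 (bL20m), the counterpart of a bacterial protein needed early in large subunit assembly, is at chr1:1401909-1407293 on the minus strand. It stood at 231.0, 269.4 and 253.2 TMM-scaled RPKM in sh-luc and at 127.3, 167.6 and 173.3 in sh-lncRNA-IIRX. Again the groups did not overlap (log2 fold change -0.69 ± 0.1, SE, edgeR adjusted p = 3.82e-05).

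In the small subunit the falls were smaller than those of the 4 leading MRPL genes. MRPS15 (uS15m, NP_112570.2), an rRNA-binding protein at chr1:36455718-36464384 on the minus strand, had the highest level of the MRPS accessions used. It was at 448.8, 445.5 and 424.5 TMM-scaled RPKM in sh-luc and at 261.3, 310.7 and 311.5 in sh-lncRNA-IIRX. The groups were separated by a wide gap and the level fell by 0.58 on the log2 scale (SE 0.077, edgeR adjusted p = 1.6e-05). MRPS21 (bS21m), at chr1:150293861-150308979 on the plus strand, was at 209.4, 236.2 and 252.9 TMM-scaled RPKM in sh-luc and at 143.3, 167.6 and 157.6 in sh-lncRNA-IIRX. It fell by 0.58 with no overlap (SE 0.089, edgeR adjusted p = 6.57e-05). The accession used held 50.1% of its reads, and the levels of its accessions summed to 467.1 in sh-luc, above the 439.6 of MRPS15. MRPS5 (uS5m), beside the mRNA entry channel, at chr2:95085369-95121808 on the minus strand, was at 71.51, 68.45 and 65.5 TMM-scaled RPKM in sh-luc and at 44.84, 49.85 and 51.88 in sh-lncRNA-IIRX. It fell by 0.49 with no overlap (SE 0.079, edgeR adjusted p = 0.000114). MRPS11 (uS11m), on the platform near the mRNA exit, at chr15:88467708-88480776 on the plus strand, was at 28.65, 24.24 and 31.23 TMM-scaled RPKM in sh-luc and at 18.07, 21.19 and 20.96 in sh-lncRNA-IIRX. Its groups were apart by a narrower margin than those of the other 3, and it fell by 0.49 (SE 0.109, edgeR adjusted p = 0.00189).

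The abundant members fell as well. MRPL51 (mL51) was at 473.5, 526.7 and 497.4 TMM-scaled RPKM in sh-luc and at 296.2, 365.6 and 350.3 in sh-lncRNA-IIRX, the highest of the accessions used in both groups. Its log2 fold change was -0.57 ± 0.083 (SE, edgeR adjusted p = 4.02e-05). MRPL41 (mL41) was at 303.1, 343.6 and 405.4 TMM-scaled RPKM in sh-luc and at 241.9, 268.1 and 221.7 in sh-lncRNA-IIRX. Its sh-luc values ranged widely, but the groups did not overlap (log2 fold change -0.52 ± 0.097, SE, edgeR adjusted p = 0.000368). MRPS24, a protein of the mRNA entry site, was at 304.3, 298.1 and 299.5 TMM-scaled RPKM in sh-luc and at 246.3, 235.8 and 220.0 in sh-lncRNA-IIRX. The sh-luc libraries were nearly level and all above the knockdown libraries (log2 fold change -0.36 ± 0.072, SE, edgeR adjusted p = 0.000758). Across the accessions used the mean sh-luc level ran from 5.886 to 499.2 TMM-scaled RPKM with a median of 92.99, and 76 of the 77 members were above the median of 7.823 over all genes tested.

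Only 2 members rose. MRPL49 (mL49, NP_004918.1), a mitochondria-specific protein of the large subunit at chr11:65122321-65127371 on the plus strand, was at 58.92, 73.82 and 67.6 TMM-scaled RPKM in sh-luc and at 84.69, 88.45 and 83.03 in sh-lncRNA-IIRX. Every knockdown library was above every control library, with a log2 fold change of 0.36 ± 0.090 (SE, edgeR adjusted p = 0.00449). Its coding exons share 78 bases with exons of SYVN1 on the opposite strand, and whether the counting used strand is not given in the sources used here. MRPS27 (mS27), a pentatricopeptide repeat protein of the small subunit at chr5:72219403-72320240 on the minus strand, was at 15.67, 15.4 and 15.04 TMM-scaled RPKM in sh-luc and at 17.54, 18.5 and 19.51 in sh-lncRNA-IIRX. Its log2 fold change was 0.27 ± 0.089 (SE, edgeR adjusted p = 0.0236). The call for MRPS27 was lost without sh-luc library 2 or 3 or sh-lncRNA-IIRX library 2 or 3, at log2 fold changes of 0.22 to 0.27 and edgeR adjusted p of 0.0595 to 0.106. MRPL30 (uL30m) was also higher in all 3 knockdown libraries, at 116.5 to 129.6 against 104.2 to 114.5 TMM-scaled RPKM, and its log2 fold change of 0.20 missed the threshold (SE 0.080, edgeR adjusted p = 0.0525).

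Of the 5 stalk genes of the large subunit, which recruit translation factors, all 5 fell with TMM scaling, where 23.5% of all genes tested did. On library totals 4 fell, where 12.6% of all genes did, and with the trend of each library on transcript length removed, an alternative chosen after the data were seen, 1 fell, where 17.0% did. MRPL10 (uL10m), the protein on which the stalk is built, was at 119.7, 109.9 and 110.9 TMM-scaled RPKM in sh-luc and at 71.93, 72.9 and 74.9 in sh-lncRNA-IIRX. The groups were far apart beside the spread within each (log2 fold change -0.63 ± 0.075, SE, edgeR adjusted p = 4.38e-06). MRPL12 (bL12m), the flexible stalk protein that contacts the factors, was at 237.2, 282.7 and 279.9 TMM-scaled RPKM in sh-luc and at 164.2, 195.4 and 179.7 in sh-lncRNA-IIRX (log2 fold change -0.57 ± 0.086, SE, edgeR adjusted p = 5.2e-05). MRPL54 (mL54) at the stalk base was at 161.1, 167.7 and 186.5 TMM-scaled RPKM in sh-luc and at 95.59, 119.2 and 110.3 in sh-lncRNA-IIRX (log2 fold change -0.67 ± 0.091, SE, edgeR adjusted p = 1.86e-05). MRPL53 (mL53) was at 164.1, 150.2 and 143.4 TMM-scaled RPKM in sh-luc and at 111.2, 118.3 and 111.0 in sh-lncRNA-IIRX (log2 fold change -0.43 ± 0.082, SE, edgeR adjusted p = 0.000498). Nearly all of its coding sequence, 336 bases, lies in exons that GENCODE also assigns to CCDC142 on the same strand. MRPL11 (uL11m) was at 102.1, 98.74 and 100.5 TMM-scaled RPKM in sh-luc and at 73.29, 84.64 and 80.95 in sh-lncRNA-IIRX (log2 fold change -0.34 ± 0.080, SE, edgeR adjusted p = 0.00296). No stalk gene overlapped between the groups.

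Of the 10 central protuberance genes, which sit where the subunits and tRNAs meet, 9 fell with TMM scaling, with log2 fold changes from -0.74 for MRPL27 to -0.23 for MRPL18, where 23.5% of all genes tested fell. On library totals 5 of the 10 fell, where 12.6% of all genes did. With the transcript length trend removed 3 did, where 17.0% of all genes did. The medians of the 10 in these fits were -0.25 and -0.11. MRPL40 (mL40), the most abundant of them, was at 263.4, 275.5 and 267.5 TMM-scaled RPKM in sh-luc and at 192.7, 209.6 and 202.9 in sh-lncRNA-IIRX. Its groups did not overlap (log2 fold change -0.41 ± 0.071, SE, edgeR adjusted p = 0.000187). MRPL18 (uL18m) was at 110.3, 132.0 and 125.8 TMM-scaled RPKM in sh-luc and at 94.9, 110.7 and 109.2 in sh-lncRNA-IIRX, and its groups overlapped slightly. It passed the threshold narrowly (edgeR adjusted p = 0.0493) and, of the 6 fits that left out a library, held only in the one without sh-luc library 1 (edgeR adjusted p 0.0166), with 0.0574 to 0.204 in the other 5 fits. MRPL58 (mL62), which also works as a peptidyl-tRNA hydrolase in ribosome rescue, fell by 0.51 on the log2 scale (edgeR adjusted p = 0.000421). The gene that did not pass was MRPL55 (bL31m), at -0.48 on the log2 scale (edgeR adjusted p = 0.0647). Its reads were divided over 14 accessions with 241 to 282 reads each, so the accession used held 7.8% of them and its level is not that of the gene.

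The 8 proteins around the exit tunnel, where the inner membrane insertase receives the new chain, were less alike. With TMM scaling 5 fell and 3 did not pass, where 23.5% of all genes tested fell. On library totals 2 fell and 1 rose, where 12.6% and 38.2% of all genes did. With the transcript length trend removed 2 fell and 1 rose, where 17.0% and 15.2% of all genes did. MRPL22 (uL22m), which lines the tunnel and had the highest mean level of the 8 by the accession used, was at 143.7, 140.8 and 148.7 TMM-scaled RPKM in sh-luc and at 115.2, 129.1 and 117.7 in sh-lncRNA-IIRX. It fell by 0.26 on the log2 scale (SE 0.076, edgeR adjusted p = 0.0116), and missed the threshold without sh-luc library 3 (edgeR adjusted p = 0.0562) or sh-lncRNA-IIRX library 3 (edgeR adjusted p = 0.0526). MRPL45 (mL45), which anchors the ribosome to the inner membrane, was at 78.56, 76.48 and 75.19 TMM-scaled RPKM in sh-luc and at 78.53, 83.07 and 76.61 in sh-lncRNA-IIRX. These groups overlapped (log2 fold change 0.05 ± 0.074, SE, edgeR adjusted p = 0.637). MRPL44 (mL44) had a log2 fold change of -0.01 and MRPL17 (bL17m) of -0.21, and neither passed.

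Of the 7 small subunit proteins at the decoding centre and along the mRNA path, 5 fell and 2, MRPS2 and MRPS7, did not pass. With this TMM scaling 23.5% of all genes fell. On library totals 2 of the 7 fell, where 12.6% of all genes did. With the transcript length trend removed 2 fell, where 17.0% of all genes did. The medians of the 7 in these last 2 fits were -0.166 and 0.075. MRPS2 (uS2m), on the back of the small subunit body, was at 28.08, 28.37 and 30.76 TMM-scaled RPKM in sh-luc and at 25.55, 30.38 and 27.1 in sh-lncRNA-IIRX. The groups overlapped (log2 fold change -0.07 ± 0.092, SE, edgeR adjusted p = 0.562). MRPS12 (uS12m) of the decoding centre fell by 0.41 on the log2 scale (SE 0.103, edgeR adjusted p = 0.00442). A family of 3 related genes encodes versions of bacterial S18, each used at a separate place. MRPS18C (bS18m), the direct counterpart in the small subunit, was at 158.9, 188.2 and 174.5 TMM-scaled RPKM in sh-luc and at 127.7, 152.3 and 150.8 in sh-lncRNA-IIRX (log2 fold change -0.28 ± 0.088, SE, edgeR adjusted p = 0.019). That call was lost without sh-luc library 2 or 3 or sh-lncRNA-IIRX library 1 (edgeR adjusted p 0.0531 to 0.107). MRPS18A (mL66), which sits in the large subunit despite its symbol, was at 92.83, 91.18 and 94.97 TMM-scaled RPKM in sh-luc and at 75.12, 75.84 and 76.66 in sh-lncRNA-IIRX, with close replicates and no overlap (log2 fold change -0.29 ± 0.076, SE, edgeR adjusted p = 0.00514). MRPS18B (mS40) was at 183.5, 205.1 and 200.3 TMM-scaled RPKM in sh-luc and at 161.2, 191.5 and 187.7 in sh-lncRNA-IIRX, with overlapping groups (log2 fold change -0.13 ± 0.081, SE, edgeR adjusted p = 0.236).

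The counts were close by family name. Of 44 members with a universal or bacterial family name, 29 fell and none rose in edgeR's test, with 4 of them at a log2 fold change above 0 and a median of -0.33. Of 31 members marked m, named as mitochondria-specific, 19 fell and 2 rose, with a median of -0.34. These 31 include MRPS18A and MRPS18B of the S18 family. Over all genes tested, 23.5% fell and 22.4% rose. MRPS24 and MRPS28 had no family name in the annotation used and are in neither class. Among MRPL genes 20 of 30 and 13 of 19 in these classes fell, with medians of -0.331 and -0.414. Among MRPS genes 9 of 14 and 6 of 12 did, with medians of -0.344 and -0.209. The difference between the classes was not tested. With MRPS18A and MRPS30, which both sit in the large subunit, counted there, 34 of 51 large and 16 of 26 small subunit genes were called lower.

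Many members are hard to count exactly. In the table, 40 members had several accessions, and of their 95 other accessions 61 were called lower, 2 higher and 32 neither, with a median log2 fold change of -0.41. Accessions of the same gene share reads and are not independent. Both accessions called higher belonged to MRPS35, at 0.43 and 0.36 on the log2 scale, whose main accession was at 0.01 (edgeR adjusted p = 0.945). For 1 member, MRPL10, another accession had the opposite sign to the main one (log2 fold change 0.17, edgeR adjusted p = 0.137). The coding exons of 25 members lie partly in exons of another gene, and 17 of these were called lower and 1 higher, against 33 and 1 of the 52 without such overlap. RefSeq names pseudogenes after 41 members, and 24 of these members were called lower and 1 higher, against 26 and 1 of the 36 without. Over all genes tested, with 1 accession each, 23.5% were called lower and 22.4% higher. The share called over all accessions is not given here. How reads from such pseudogenes were assigned is not given in the sources used here.

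Transcript length moved with the fold change across all genes, and the members are short. Their MANE Select transcripts, the single reference transcript chosen per gene, had a median of 1224 bases and ran from 496 to 15557, against a median of 2890 over all genes tested; their coding rows had a median of 597 bases against 1212. Across 8683 genes, longer transcripts went with higher log2 fold changes (Pearson r = 0.46 on log2 length, Spearman rho = 0.49), and across the 77 members the same held (r = 0.45, rho = 0.46). The relation was seen among MRPL genes (r = 0.57, rho = 0.56, n = 49) and hardly among MRPS genes (r = 0.04, rho = 0.08, n = 28). With the length of the coding row the correlations were lower, at r = 0.30 and rho = 0.32 over all these genes and r = 0.28 and rho = 0.27 over the members. Higher GC content of the transcript went with lower fold changes (rho = -0.33 over all genes, -0.56 over the members). Genes share libraries and depth, so these correlations are descriptions across genes.

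Placed among genes of like length, the members stood closer to their surroundings. Genes were put in 5 groups of equal size by transcript length. In the shortest group, 213 to 1567 bases, the 51 members had a median log2 fold change of -0.40 and 38 were called lower, whereas the 1687 other genes had a median of -0.34 and 54.1% were called lower. In the next group, 1568 to 2410 bases, the 13 members had a median of -0.10 and the 1723 others -0.09. In the remaining groups the medians of the other genes were above 0. From 2411 bases up, these medians were 0.06, 0.21 and 0.25 in the 3 groups, and those of the members -0.34 (n = 6), -0.26 (n = 4) and -0.05 (n = 3). By the length of the coding row, 45 members were in the shortest group (55 to 642 bases) with a median of -0.37 against -0.22 for its other genes, 22 in the next with -0.32 against -0.09, and 10 in the third with -0.14 against 0.00.

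When each library's trend on transcript length was removed before the test, an alternative chosen after the data were seen, fewer members passed. Then 9 MRPL genes were called lower and 3 higher, and 8 MRPS genes lower and none higher in edgeR's test, where 17.0% of the 8683 genes were called lower and 15.2% higher. The median log2 fold change became -0.12 for MRPL and -0.002 for MRPS. Of the 50 members called lower in the test without this step, 16 were still called lower. The lowest values were then those of MRPS genes with long transcripts: MRPS25 at -0.63 (4572 bases), MRPS11 at -0.62 (3392 bases), MRPS23 at -0.62 (5609 bases), MRPS5 at -0.61 (3298 bases) and MRPS33 at -0.56 (4210 bases), with edgeR adjusted p from 1.61e-05 to 0.0009. Among MRPL genes MRPL10 at -0.48 and MRPL23 at -0.47 were lowest, and MRPL49, MRPL32 and MRPL45 were called higher, at 0.44, 0.29 and 0.25. MRPL27, MRPL52, MRPS15 and MRPS21 also passed, at -0.32, -0.42, -0.22 and -0.25, whereas 10 of the 50 turned positive without passing. These were MRPL13 (0.07), MRPL16 (0.06), MRPL18 (0.13), MRPL33 (0.03), MRPL34 (0.09), MRPL46 (0.01), MRPL53 (0.05), MRPS18A (0.01), MRPS24 (0.08) and MRPS28 (0.08), and MRPL40 was at 0.00. Whether transcript length, RNA integrity or library preparation has a part in the falls was not tested.

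The number of members that passed also moved with the scaling. TMM factors were 0.9292 to 0.9424 in sh-luc and 1.051 to 1.1 in sh-lncRNA-IIRX. Scaled to library totals, without these factors, the median log2 fold change of all genes was 0.19, with 12.6% called lower and 38.2% higher in edgeR's test. On that scale 20 MRPL genes were lower and 6 higher, with a median of -0.15, and 7 MRPS genes were lower and 3 higher, with a median of -0.11. Relative to the median of all genes, the members were lower on both scales. MRPL45 passed as higher on that scale (log2 fold change 0.24, edgeR adjusted p = 0.00924), and MRPL11, MRPL18, MRPL22, MRPS18A, MRPS18C and MRPS24 no longer passed.

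**Figure D2:**
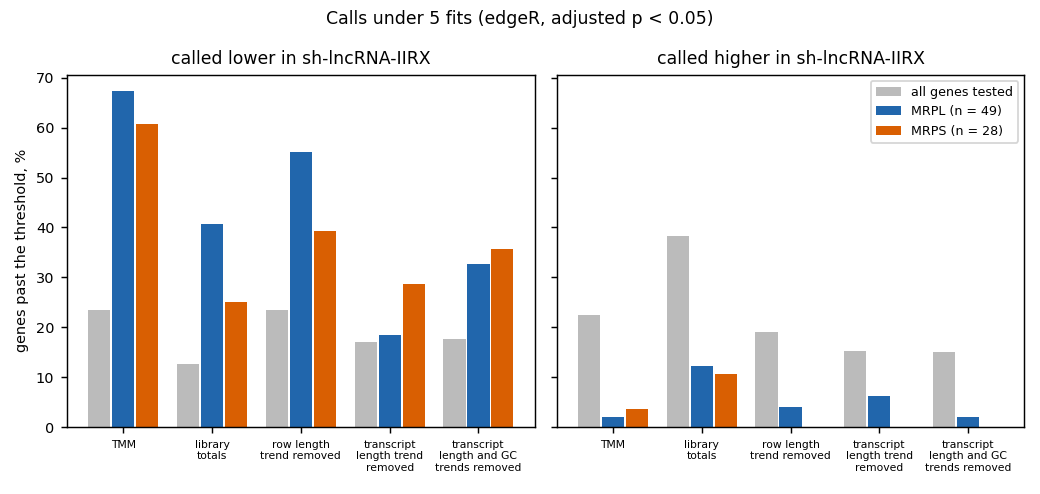
Percent of all genes tested (grey), MRPL (blue) and MRPS (orange) called lower (left) or higher (right) in sh-lncRNA-IIRX under 5 edgeR fits. The lower share of MRPL drops from 67.3% with TMM scaling to 40.8% with library totals and 18.4% with the transcript length trend removed, against 23.5%, 12.6% and 17.0% of all genes.

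Of 5 mitoribosome proteins without an MRP symbol, AURKAIP1 (mS38), GADD45GIP1 (mL64) and CHCHD1 (mS37) fell, at -0.68, -0.63 and -0.33 on the log2 scale, PTCD3 (mS39), an RNA-binding pentatricopeptide repeat protein, rose by 0.30 with TMM scaling, and DAP3 (mS29), a GTP-binding protein, did not pass at -0.12. With the transcript length trend removed AURKAIP1 and GADD45GIP1 passed at -0.27 and -0.48, whereas PTCD3 (0.04) and CHCHD1 (0.05) did not. GADD45GIP1 was at 263.1, 273.9 and 309.9 TMM-scaled RPKM in sh-luc and at 174.2, 193.3 and 181.8 in sh-lncRNA-IIRX (edgeR adjusted p = 8.57e-06). Of 24 tested factors for ribosome assembly and rRNA modification, 6 fell and none rose with TMM scaling, a share near the 23.5% of all genes tested, with a median of -0.10. On library totals 1 fell and 1 rose (4.17% each), with a median of 0.09, where 12.6% and 38.2% of all genes did. The 6 were RBFA, an rRNA-processing factor of the small subunit (-0.43), MRM1 (-0.39) and MRM3 (-0.33), which methylate the large rRNA, MALSU1 (-0.35) and the GTPase MTG1 (-0.29), both of large subunit assembly, and RPUSD3 (-0.24), a pseudouridine synthase family member. Without sh-luc library 3 or without sh-lncRNA-IIRX library 3, 3 of the 24 passed. Of 15 tested translation factors, 5 (33.3%) fell and 1 (6.67%) rose with TMM scaling, where 23.5% and 22.4% of all genes did, with a median of -0.13. On library totals 2 fell and 3 rose, with a median of 0.06, where 12.6% and 38.2% of all genes did. With the transcript length trend removed 2 fell and none rose, where 17.0% and 15.2% of all genes did. GFM2, a ribosome recycling GTPase, was at 39.99, 37.95 and 35.08 TMM-scaled RPKM in sh-luc and at 23.03, 23.89 and 25.47 in sh-lncRNA-IIRX, the lowest fold change of this list (-0.64, edgeR adjusted p = 6.53e-06). TUFM and TSFM, the elongation factor pair that brings tRNAs to the ribosome, were at -0.32 and -0.35 and passed, as did TACO1 (-0.39), needed to translate COX1, and SLIRP (-0.44), which protects mitochondrial mRNAs. GFM1, the translocation GTPase, rose by 0.37 (edgeR adjusted p = 0.025). With the transcript length trend removed GFM2 (-0.73) and TUFM (-0.23) passed, and SLIRP turned to 0.08 without passing.

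The list of mitochondrial transcription and maintenance genes also holds the nuclear transcription factors NRF1, GABPA, GABPB1 and YY1, with GABPA and YY1 among its risers. Of its 13 tested genes, 3 were called lower (23.1%) and 3 higher (23.1%) with TMM scaling, with a median of 0.13. Over all genes tested 23.5% were lower and 22.4% higher. On library totals 1 fell and 7 rose, with a median of 0.32, where 12.6% and 38.2% of all genes did. POLG2, the accessory subunit of the mitochondrial DNA polymerase (-0.56), the single-strand binding protein SSBP1 (-0.41) and the RNA polymerase POLRMT (-0.22) fell. The transcription factor subunit GABPA was at 2.085, 2.107 and 2.293 TMM-scaled RPKM in sh-luc and at 3.407, 3.954 and 3.638 in sh-lncRNA-IIRX (log2 fold change 0.76, edgeR adjusted p = 0.000355). TFB2M, a mitochondrial transcription initiation factor, rose by 0.34 and the zinc finger factor YY1 by 0.31. YY1 was at 44.29, 52.12 and 50.64 TMM-scaled RPKM in sh-luc and at 59.84, 62.39 and 60.26 in sh-lncRNA-IIRX (edgeR adjusted p = 0.00513). With the transcript length trend removed, YY1 was at 0.06 (edgeR adjusted p = 0.611), SSBP1 at 0.02 (edgeR adjusted p = 0.923) and GABPA at 0.52 (edgeR adjusted p = 0.0119).

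The 13 coding sequences that mitochondrial ribosomes translate had a median log2 fold change of -0.11 with TMM scaling. Of these, 5 were called lower (38.5%), 2 higher (15.4%) and 6 neither, where 23.5% and 22.4% of all genes were called. On library totals 4 (30.8%) were called lower and 5 (38.5%) higher, with a median of 0.08, where 12.6% and 38.2% of all genes were. ND6, ND3, ND5, COX3 and COX2 fell, at -0.63, -0.61, -0.51, -0.34 and -0.18 (COX2 turns to 0.02 on library totals), and ND4L and COX1 rose, by 0.29 and 0.22. Without sh-luc library 3, or without sh-lncRNA-IIRX library 3, 4 passed and all 4 were lower. ND6 is encoded on the other strand from the rest, and strand use in the counting is not given in the sources used here. By contrast, all 81 tested cytosolic ribosomal protein genes fell with TMM scaling, where 23.5% of all genes did. Their median was -0.52, with values from -0.88 to -0.23. Their transcripts are shorter still, with a median of 785 bases. With the transcript length trend removed 35 (43.2%) were called lower and 1 (1.23%) higher, with a median of -0.16. In that fit 17.0% of all genes were called lower and 15.2% higher.

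Promoters of the members were read next because so many genes moved together. Of the 77 members, 69 had a promoter entry in the RefSeq set used (GRCh38.p14), which covers 250 bases before to 50 after the start. On both strands, the ETS letters CCGGAAGT, bound by factors such as GABPA, were in 12 of the 69 (17.4%) against 6.31% of 15843 promoters. The NRF1 letters GCGCATGC were in 6 (8.7%) against 4.39%. The YY1 letters AANATGGC were in 26 (37.7%), 16 of 42 MRPL and 10 of 27 MRPS promoters, against 8.24%. In 19 members (27.5%) the ATG inside these letters was the start codon itself, with the start codon 10 to 39 bases into the transcript, against 391 of 15843 promoters (2.47%). These 19 were picked out after the values were seen and contain both risers. The start sites of 8 of them follow in RefSeq sequence, the strand of the gene, with the YY1 letters in capitals. They show how the protein-coding start is embedded in the motif: MRPL49 and MRPS27, which rose, MRPL45, MRPS10 and MRPS14, which did not pass, and MRPL47, MRPL38 and MRPS24, which fell.
MRPL49, chr11:65122336-65122359, plus strand: agcaggtaAAGATGGCagctacca
MRPS27, chr5:72320209-72320232, minus strand: tacgctccAAGATGGCtgcctcca
MRPL45, chr17:38297173-38297196, plus strand: gcgggaacAAGATGGCagccccca
MRPS10, chr6:42217837-42217860, minus strand: ggaccggcAAGATGGCggcgcgga
MRPS14, chr1:175023396-175023419, minus strand: tagcggacAACATGGCggccttca
MRPL47, chr3:179604612-179604635, minus strand: tatgcgaaAACATGGCtgcggccg
MRPL38, chr17:75904863-75904886, minus strand: ccggagggAAGATGGCggcgccct
MRPS24, chr7:43869483-43869506, minus strand: cttggcccAAGATGGCggcctccg

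The 19 members with the YY1 letters at the start codon had a median log2 fold change of -0.13, with 7 lower and 2 higher in edgeR's test, and the other 50 members with a promoter entry had a median of -0.41, with 36 lower and none higher. With the transcript length trend removed the medians were 0.08, with 1 lower and 3 higher, and -0.15, with 13 lower and none higher. On library totals none of the 19 was called lower and 5 (26.3%) were called higher, with a median of 0.07. Of the other 50, 23 were lower and 4 higher, with a median of -0.22. On that scale 12.6% of all genes were lower and 38.2% higher, with a median of 0.19. With TMM scaling these shares of all genes were 23.5% and 22.4%. With the transcript length trend removed they were 17.0% and 15.2%. The split was made after the values were seen and carries no test. A pair of the steepest fallers shows other arrangements of the same letters. The 120 bases before the start of MRPL27 hold the ETS letters at 2 places, and those of MRPL52 hold the YY1 letters at 2 places upstream of the start and, in the last 6 bases, the first part of an ETS site in reverse orientation. Both are given on the strand of the gene with these letters in capitals.
MRPL27, chr17:50373185-50373304, minus strand: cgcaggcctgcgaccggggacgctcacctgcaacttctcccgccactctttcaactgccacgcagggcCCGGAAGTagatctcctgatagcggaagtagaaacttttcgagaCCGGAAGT
MRPL52, chr14:22829767-22829886, plus strand: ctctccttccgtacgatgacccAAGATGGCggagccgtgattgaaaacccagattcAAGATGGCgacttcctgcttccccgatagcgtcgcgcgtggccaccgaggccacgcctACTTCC
A match to these letters is a description of the sequence and says nothing of what binds there in these cells.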

How the data were processed

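RNA-seq of 3 sh-lncRNA-IIRX and 3 sh-luc K562 libraries was used, with groups and replicate numbers from the labels. The submitters' processing notes name CASAVA 1.8, Trimmomatic 0.32, Bowtie2 2.1.0, SAMtools 0.1.19 and hg38. The authors deposited, per RefSeq protein accession, read counts without normalization and RPKM, which equal counts divided by coding length and by the library's summed counts. A deposited table of the authors' own comparison (pooled counts and RPKM, ratio, p-value, q-value) was not used. The annotation release, strandedness and the rule for reads shared by isoforms are not given in the sources used here.

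Counts of 38204 accessions whose RPKM averaged 1 or more were tested with edgeR 4.0.16 (R 4.3.3), TMM, quasi-likelihood, two-sided, Benjamini-Hochberg, threshold 0.05. SE is the log2 fold change divided by the root of F. A symbol was found for 64.7% of accessions. Alternatives were DESeq2 1.42.0, limma 3.58.1 on log2(RPKM + 0.1) or log2(RPKM + 1), other scalings and minima, each library left out, a replicate block, a series term, summed accessions, and removal of each library's trend on row or transcript length and GC (mgcv 1.9.3). The fits on transcript length were added after the data were seen. Values in every library are given for the 4 largest called rises and falls and the 2 most abundant genes of each subunit and for the role lists, where lists of over 5 are shown by their lowest, highest and most abundant gene. Genes outside these rules and the split by the YY1 letters were picked with their values in view. The members and lists were chosen with earlier results of these data known. On simulated counts with 200 of 38204 accessions changed, edgeR recovered 137, 92 of 100 changed 2-fold and 45 of 100 changed less, with 17 false calls. The simulated counts had no trend on transcript length and no series effect. Their changed share was far below the 23.5% and 22.4% of genes called lower and higher here. They therefore do not show how the test behaves under those conditions. Gene coordinates are from GENCODE release 44, and promoters from RefSeq GRCh38.p14. Promoters of MRPL2, MRPL10, MRPL13, MRPL15, MRPL21, MRPL23, MRPL35 and MRPS28 were not analysed here.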

Additional observations from a re-analysis of the deposited data

How the results depend on the processing

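For the count of called members (34 MRPL, 18 MRPS), the replicate block gave 38 and 20, the series term 40 and 20, DESeq2 31 and 18, and leaving out 1 library 28 to 34 and 15 to 19. Correlations of same-numbered deviations between the groups were 0.306, 0.0846 and -0.0125 for libraries 1, 2 and 3. Between library 2 of one group and library 3 of the other they were 0.222 and 0.0999. Pairs of libraries from different series were at -0.261 to -0.0705. The deviations thus went with the label series more than with the numbers inside series 2. The main fit holds neither a block nor a series term, and both are alternatives. MRPL counts moved by over 1.5 times with transcript length removed (12), with the replicate block added (21) or GC added (17), and MRPS counts with library totals (10), limma at either pseudocount (8), row length removed (11), transcript length removed (8) and with GC (10). The medians of MRPL and MRPS were -0.385 to -0.284 and -0.346 to -0.247 with 1 library left out, -0.151 and -0.111 with library totals, -0.150 and -0.113 with limma at 0.1, -0.148 and -0.112 at 1, -0.230 and -0.190 with a minimum RPKM of 5, -0.271 and -0.200 with row length removed, -0.269 and -0.203 with the block added, -0.232 and -0.196 with GC added, -0.122 and -0.002 with transcript length removed, -0.126 and -0.002 with the block added, -0.102 and -0.006 with GC added, and -0.358 for MRPS with no minimum.

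Of the members whose values in every library are given, signs turned, without passing, with transcript length removed, alone, with the block and with GC, for MRPL18 (0.128, 0.131, 0.079), MRPL53 (0.052, 0.053, 0.089), MRPS18A (0.011, 0.011, 0.054) and MRPS24 (0.075, 0.073, 0.115), for MRPL40 alone and with the block (0.000, 0.001), and for MRPL41 with GC (0.075). Of the other lists, mitoribosome proteins without an MRP symbol had 4 calls, 2 with row length removed, with or without GC, 2 with transcript length removed, with or without the block, and 1 with GC, and 4 in every fit that left out a library. Assembly factors had 6, with 10 under the series term, 2 with library totals or limma, 3 at RPKM 5, 1 with libraries 2 and 3 summed and 3 to 5 with 1 library left out. Translation factors had 6, with 10 under the series term, 2 with transcript length removed and 3 with GC, and 5 to 8 with 1 library left out. Transcription and maintenance genes had 6, with 3 with transcript length and GC removed and 4 to 7 with 1 library left out. Cytosolic ribosomal proteins had 81, with 36, 41 and 52 with transcript length removed, alone, with the block and with GC, and 80 to 81 with 1 library left out. Mitochondrially encoded genes had 7, with 4 with libraries 2 and 3 summed and 4 to 8 with 1 library left out. The cause of these moves was not tested.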
